A study of Mus musculus with 46 samples.

Results

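The genes of mouse embryonic fibroblasts were sorted by which of 3 chromatin features they carried at day 0 of reprogramming: the histone variant H3.3, histone H3 trimethylated at lysine 4 (H3K4me3) and histone H3 trimethylated at lysine 36 (H3K36me3). The data are 3 of the 46 libraries of the series, taken by their labels as D0 with each of the 3 antibodies, and all 22367 protein-coding genes of GENCODE vM1 on chromosomes 1 to 19, X and Y (mouse genome build mm9) were sorted. D0 cells were fibroblasts of embryos that carry IRES-EGFP behind the stop codon of Oct4, labelled day 0 and unsorted. Reprogramming used retroviruses that carry the factors Klf4, c-Myc, Oct4 and Sox2. Whether D0 cells were taken before or after the infection is not given in the sources used here. The labels mark no genotype difference among the 3 libraries. D3 cells, labelled day 3 after induction and unsorted, iPSCs, the converted pluripotent cells, and a separate H3.3 library of fibroblasts labelled MEF, which was the starting point of a conversion to blood cells, were used for comparison only. Each mark had 1 library in each group, so no value below has a replicate check and no test was possible. Intervals are 95% intervals (Wilson for shares, order statistics for medians) and cover counting error only.

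H3.3 differs from the canonical H3 by a few amino acids and is put into chromatin independently of DNA synthesis, by the Hira complex at active genes and by Daxx and Atrx at repeats and telomeres. H3K4me3 is written by Set1 and Mll complexes around the start sites of genes, above all where the promoter is rich in CpG, whether or not the gene is strongly transcribed. H3K36me3 is written by Setd2, which travels with the elongating polymerase, and so lies over transcribed gene bodies. The antibodies to the methyl marks see them on any H3, H3.3 included.

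The libraries held 26.96 M (H3.3), 29.2 M (H3K4me3) and 24.6 M (H3K36me3) tags and were called against the same D0 input. The H3.3 list asks for a fold over input of 2 and the other lists for 4, and 55.1% of the H3.3 peaks reached 4. The share of tags inside peaks was 19.1%, 30.4% and 31.3%. A gene was said to carry a mark when the midpoint of a peak lay inside it or within 1000 bp of its ends. Because a broad peak can cover a short gene and have its midpoint in a neighbour, lists of short genes are also given by a looser rule, at least 1 bp of a peak inside the gene.

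The labelled cell type was checked on marker lists. Of 30 fibroblast matrix genes, 28 carried H3.3 (59% of all genes), 29 carried H3K4me3 (68.6% of all genes) and 29 carried H3K36me3 (47.1% of all genes). All 30 fibroblast identity genes carried H3.3 and H3K4me3, and 27 carried H3K36me3. Markers of other cell types seldom carried H3K36me3: 1 of 24 pluripotency genes, 3 of 24 epithelial, 5 of 23 hematopoietic, 1 of 12 endothelial, 5 of 19 neuronal, 1 of 20 liver and 1 of 15 skeletal muscle genes. H3.3 and H3K4me3 did not set all of these lists apart. They were on 16 and 21 of the epithelial, 8 and 11 of the endothelial and 12 and 18 of the neuronal genes, above their shares of all genes. H3.3 was below its share of all genes in the muscle (5), hematopoietic (9), pluripotency (6) and liver (3) lists. H3K4me3 was on 11, 11, 14 and 4 of these. The 5 hematopoietic genes with H3K36me3 were Csf1r, Cd68, Cd34, Runx1 and Lyl1, with 7.08%, 64.8%, 3.48%, 33.8% and 26.1% of the gene covered, whereas the leukocyte gene Ptprc and the T cell gene Cd3e had 0 base pairs of it. What part other cells in the culture have in these values was not tested.

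Most marked genes carried all 3 marks. This class held 9150 genes, 40.9% of all genes (40.3 to 41.6), and was the largest of the 8. H3.3 and H3K4me3 without H3K36me3 marked 3100 genes (13.9%, 13.4 to 14.3), and H3K4me3 as the only mark 2210 genes (9.88%, 9.50 to 10.3). H3K4me3 and H3K36me3 without H3.3 marked 885 genes (3.96%, 3.71 to 4.22). H3.3 as the only mark was found on 679 genes (3.04%, 2.82 to 3.27), H3.3 with H3K36me3 on 269 (1.2%, 1.07 to 1.35) and H3K36me3 as the only mark on 237 (1.06%, 0.934 to 1.20). No mark was found on 5837 genes (26.1%, 25.5 to 26.7). By the rule of at least 1 bp the shares were 41.7% for all 3 marks, 12.8% for H3.3 with H3K4me3, 10.3% for H3K4me3 only, 4.33% for H3K4me3 with H3K36me3, 2.25% for H3.3 only, 1.04% for H3.3 with H3K36me3, 1.1% for H3K36me3 only and 26.4% for none.

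**Figure D1:**
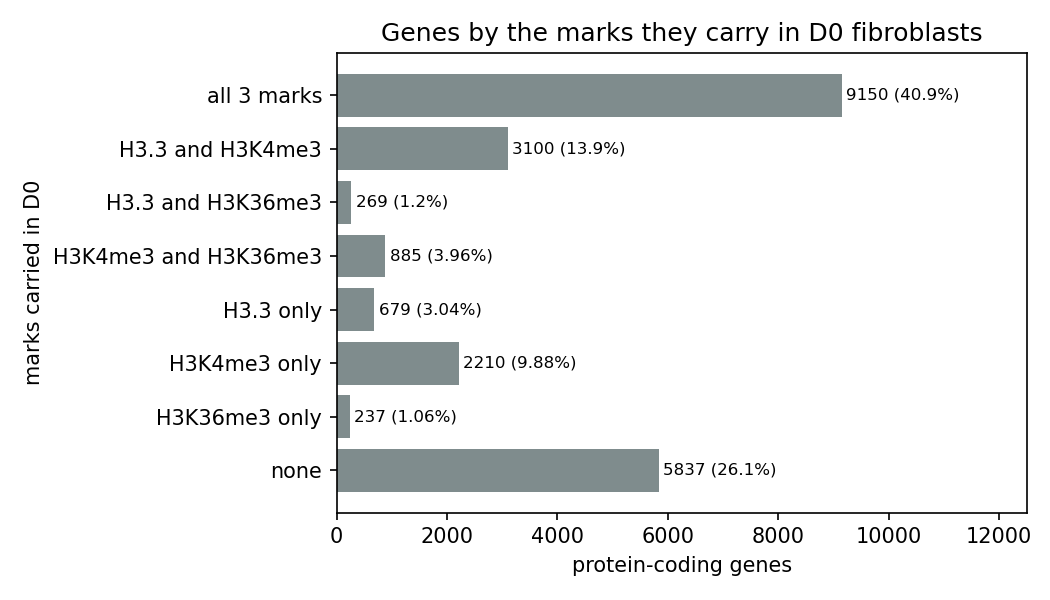
Number of protein-coding genes in each of the 8 classes of marks in D0, with the share of all 22367 genes. All 3 marks (9150 genes) and none (5837 genes) are the longest bars, and the classes without H3K4me3 but with another mark are short.

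H3.3 thus rarely stood apart from H3K4me3 at the level of genes. Of the 13198 genes with H3.3, 92.8% (92.4 to 93.2) also carried H3K4me3 and 71.4% (70.6 to 72.1) also carried H3K36me3. Of the 10541 genes with H3K36me3, 95.2% carried H3K4me3 and 89.4% carried H3.3. The reverse was less complete, since 79.8% of the 15345 genes with H3K4me3 carried H3.3 and 65.4% carried H3K36me3. The genes with H3K4me3 and H3K36me3 but no H3.3 depend on where H3.3 is called. With a fold of at least 4 asked of all 3 marks they numbered 1826, with equal numbers of top-scoring peaks 2178, with peaks at or above the median score of their list 1677, and with the MEF list of H3.3 2093. Genes with H3.3 as the only mark numbered 428 with a fold of at least 4 and 338 with equal numbers of peaks.

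The classes differed in the sequence before the gene start. A promoter was called CpG-rich when the 1 kb around the start had an observed over expected CpG ratio of at least 0.6 and a GC content of at least 50%. This held for 74.4% (73.5 to 75.3) of the genes with all 3 marks, 56.9% of those with H3K4me3 and H3K36me3, 48.5% of those with H3.3 and H3K4me3 and 40.5% of those with H3K4me3 alone. It held for 23.4% with H3.3 and H3K36me3, 5.74% with H3.3 alone, 3.38% with H3K36me3 alone and 0.977% with no mark, and for 44.2% of all genes. Every class without H3K4me3 lay below the share of all genes, as did H3K4me3 alone, and by more. In the 250 bases before the start the median number of CG pairs was 16 with all 3 marks, 9 with H3K4me3 alone, 3 with H3.3 alone and 2 with no mark.

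Those 250 bases are printed for the first named gene of each class with a mark other than H3.3 alone, as examples of single genes. They were read from the mm9 genome on the strand of the gene and end at the base before the annotated start, with every CG in capitals. Named genes were taken from genes at least 2 kb from any neighbour, as the 3 of each class whose summed peak scores ranked highest, judged by the weakest of the marks that define the class.
Rbms3, all 3 marks, chr9:117539032-117539281, minus strand: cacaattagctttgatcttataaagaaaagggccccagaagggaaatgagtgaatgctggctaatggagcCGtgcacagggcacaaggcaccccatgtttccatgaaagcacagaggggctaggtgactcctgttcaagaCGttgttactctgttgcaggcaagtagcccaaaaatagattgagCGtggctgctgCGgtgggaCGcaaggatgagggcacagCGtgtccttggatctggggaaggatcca
Sema7a, H3.3 and H3K4me3, chr9:57787670-57787919, plus strand: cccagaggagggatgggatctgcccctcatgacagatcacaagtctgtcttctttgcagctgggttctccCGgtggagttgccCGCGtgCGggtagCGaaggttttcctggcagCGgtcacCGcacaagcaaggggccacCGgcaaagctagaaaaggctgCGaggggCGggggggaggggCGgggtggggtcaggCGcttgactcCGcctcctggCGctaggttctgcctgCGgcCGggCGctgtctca
Tnc, H3.3 and H3K36me3, chr4:63681761-63682010, minus strand: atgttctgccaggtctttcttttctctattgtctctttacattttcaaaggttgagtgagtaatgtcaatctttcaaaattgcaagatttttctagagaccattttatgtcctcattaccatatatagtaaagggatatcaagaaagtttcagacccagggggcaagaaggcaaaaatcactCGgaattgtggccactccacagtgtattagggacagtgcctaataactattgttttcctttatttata
Pfkfb3, H3K4me3 and H3K36me3, chr2:11423729-11423978, minus strand: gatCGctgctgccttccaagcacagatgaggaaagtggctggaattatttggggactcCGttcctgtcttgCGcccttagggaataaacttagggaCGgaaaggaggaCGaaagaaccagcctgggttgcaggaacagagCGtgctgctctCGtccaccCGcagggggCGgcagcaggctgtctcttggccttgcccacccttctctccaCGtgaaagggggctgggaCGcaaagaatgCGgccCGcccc
6430527G18Rik, H3K4me3 only, chr12:88225765-88226014, minus strand: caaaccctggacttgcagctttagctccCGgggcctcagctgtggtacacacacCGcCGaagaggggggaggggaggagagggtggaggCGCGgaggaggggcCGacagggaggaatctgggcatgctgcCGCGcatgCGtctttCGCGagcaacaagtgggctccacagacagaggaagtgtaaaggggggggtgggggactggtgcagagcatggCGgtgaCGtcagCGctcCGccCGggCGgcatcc
Zfp958, H3K36me3 only, chr8:4625590-4625839, plus strand: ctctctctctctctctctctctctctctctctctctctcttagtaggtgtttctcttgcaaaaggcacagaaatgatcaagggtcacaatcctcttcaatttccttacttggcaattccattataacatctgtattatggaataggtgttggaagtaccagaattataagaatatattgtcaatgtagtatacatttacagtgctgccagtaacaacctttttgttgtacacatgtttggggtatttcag

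The windows held 17 CG pairs in Sema7a, 17 in 6430527G18Rik and 13 in Pfkfb3, the 3 whose windows a H3K4me3 peak covered over all 250 bases. They held 6 in Rbms3, 1 in Tnc and 0 in Zfp958, and no H3K4me3 peak reached these 3 windows. Rbms3 thus lay below the median of 16 of its class. Its H3K4me3 peak with the highest score lay inside the gene, 380 kb from the annotated start. In Tnc and Zfp958 the H3K36me3 peak covered the whole window before the start. A H3K36me3 peak before the start was frequent only in the classes with H3K36me3 but without H3K4me3. With H3K36me3 alone such a peak reached the 250 bases before the start in 37.1% (31.2 to 43.4) of the genes. The share was 23.0% (18.4 to 28.4) with H3.3 and H3K36me3, against 0.809% with all 3 marks. It was 4.57% with H3.3 alone and 0.565% with no mark. Whether the annotated starts of these genes are the starts in use was not tested.

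Short promoter motifs were searched in the window from 250 bases before to 50 bases after the start, on both strands, and differed in how they were shared among the classes. The TATA motif TATAAA was in 6.39% of the promoters of genes with all 3 marks, 18.3% of those with H3.3 alone, 22.8% of those with H3K36me3 alone and 27.7% of those with no mark, against 13.4% of all promoters. The GC box GGGCGG was in 64.9% with all 3 marks and 6.75% with none (43.4% of all), and the Ets core CCGGAA in 28.3% and 4.28% (17.5% of all). CCGGAA did not follow the presence of H3K4me3, with 29.7% for H3K4me3 and H3K36me3, 14.5% for H3.3 and H3K36me3, 14.4% for H3.3 and H3K4me3 and 11.7% for H3K4me3 alone. The CCAAT box, searched as ATTGG, was in 37.8% with all 3 marks and 39.6% with none, close to the 37.9% of all promoters. GGGCGG and CCGGAA contain CG and so are not independent of CpG content.

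Genes with all 3 marks were long, with a median of 29.8 kb and 11 exons. The medians were 17.3 kb for H3.3 and H3K4me3, 14.5 kb for H3K4me3 and H3K36me3, 11.9 kb for H3K4me3 alone, 11.6 kb for H3.3 and H3K36me3, 9.69 kb for H3.3 alone, 4.42 kb for H3K36me3 alone and 3.24 kb for no mark. The median of all genes was 15.4 kb. The window in which a midpoint counts is also longer in a longer gene. Of genes under 5 kb 25.1% carried H3.3 and 34.1% H3K4me3, and of genes over 300 kb 85.6% and 96.8%. H3K36me3 did not follow length in the same way. It marked 13.9% of genes under 5 kb, 68.3% of those from 50 to 100 kb and 57.0% of those over 300 kb.

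The named genes with all 3 marks were Rbms3, which encodes an RNA-binding protein, Trio, a guanine nucleotide exchange factor of small GTPases, and Lrp1, a large endocytic receptor. In the 83.0 kb of Lrp1 peaks of H3.3 covered 97.8% of the gene, peaks of H3K36me3 86.4% and peaks of H3K4me3 30.6%. In the 295 kb of Trio the shares were 62.9% for H3.3, 36.6% for H3K36me3 and 13.6% for H3K4me3. In Lrp1 and Trio H3.3 covered more of the gene than H3K36me3 did, whereas the medians of the class had the opposite order, 14.7% for H3.3 and 37.1% for H3K36me3. Rbms3, with 1057 kb, had 105 H3.3 peaks, 130 H3K36me3 peaks and 27 H3K4me3 peaks, and none of them reached the window printed above.

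Sema7a, a membrane-anchored semaphorin, was the first gene of the class with H3.3 and H3K4me3. Peaks of H3.3 covered 81.6% and peaks of H3K4me3 64.8% of its 22.8 kb, while no base pair of a H3K36me3 peak lay in it. In D3 the coverage of Sema7a by H3.3 was 0.0220% and by H3K4me3 9.77%, and in MEF the coverage by H3.3 was 4.94%. Nfe2l1, a transcription factor gene of the same class, had 91.8% H3.3 and 62.4% H3K4me3, and 41.5% of it lay under H3K36me3 peaks whose midpoint was in no window of the gene. The third, Fcgr3, an Fc receptor gene, had 24.4% and 10.4%.

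The class of H3.3 and H3K36me3 without H3K4me3 was led by Tnc, which encodes the matrix protein tenascin C. A single H3.3 peak of 91.9 kb and a single H3K36me3 peak covered all 60.9 kb of Tnc, and no H3K4me3 peak touched it. The H3.3 coverage of Tnc was 100% in D0, 66.3% in MEF, 28.3% in D3 and 0.820% in iPSCs. Il6st, the gp130 receptor subunit of the interleukin-6 family, was covered to 100% by H3K36me3 and to 34.5% by H3.3, and Gltscr1 to 60.3% and 42.4%. H3K4me3 was not far from many genes of this class: 34.2% (28.8 to 40.1) of the 269 had base pairs of a H3K4me3 peak inside them, and 50.6% had a H3K4me3 peak within 5 kb of the start.

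Pfkfb3, Tbx18 and Kdm6a led the genes with H3K4me3 and H3K36me3 but no H3.3. Pfkfb3, which makes and breaks down the glycolytic activator fructose 2,6-bisphosphate, had H3K4me3 over 2.45 kb and H3K36me3 over 23.6 kb of its 30.7 kb, the latter 76.9% of the gene, with 0 base pairs of H3.3. Tbx18, a T-box transcription factor of mesenchyme, had H3K4me3 over 10.5% and H3K36me3 over 77.5%, also with 0 of H3.3. The median H3K36me3 coverage of the class was 22.7%. The named genes were chosen for high peak scores, so the breadth of Pfkfb3 and Tbx18 is not independent of that choice. H3.3 was not detected in either gene at this depth. Kdm6a, an X-linked H3K27 demethylase known to escape X inactivation, had 2.46% and 15.6%. In D3 the H3.3 coverage of Pfkfb3 was 14.7%, that of Tbx18 was 0 and that of Kdm6a was 0.426%, and in MEF the values were 0, 2.34% and 0.

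Genes with H3.3 as the only mark carried little of it. Of the 679 genes, 523 (77.0%) had a single H3.3 peak, against 18.1% of the genes with all 3 marks. The summed score per gene of at least 5 kb, in tags per 10 M tags, had a median of 12.4, against 79.9 with all 3 marks. The fold over input of their H3.3 peaks had a median of 4.14, against 4.15 in the genes with all 3 marks. The highest scores were on Gm5176, Gm11169 and the interferon gene Ifna13, short genes of 1.23, 2.21 and 0.819 kb that a peak of 8.85, 6.96 and 4.46 kb covered completely. Ifna13 and Gm5176 were also covered completely in D3 and MEF, whereas Gm11169 was covered to 3.89% in D3 and 0 in MEF.

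The strongest genes with H3K4me3 as the only mark show what the midpoint rule leaves out. 6430527G18Rik and Ier2, an immediate early gene, were covered to 100% by H3K4me3, but also to 81.8% and 96.5% by a H3.3 peak whose midpoint lay elsewhere. Over the 2210 genes of the class this was the exception, since H3.3 base pairs lay in 133 of them (6.02%, 5.10 to 7.09). Pcdh10, a protocadherin gene of neural tissue, fits the class by any rule: a H3K4me3 peak covered 6.79% of its 56.2 kb at the start, and 0 base pairs lay under H3.3 or H3K36me3. The 237 genes with H3K36me3 alone included 29 Zfp zinc finger genes. Zfp958, AU041133 and Zfp125 led them, each covered to 100% by a H3K36me3 peak, with 0 of the other marks.

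Along the gene the marks came in the same order in most genes with all 3. In the 8709 genes of at least 5 kb with all 3 marks, the mean position of the covered base pairs, 0 at the start and 1 at the end, had a median of 0.107 (0.102 to 0.112) for H3K4me3, 0.516 (0.513 to 0.520) for H3.3 and 0.625 (0.621 to 0.628) for H3K36me3. The order H3K4me3, H3.3, H3K36me3 held in 5391 of the 8507 genes with all 3 positions (63.4%, 62.3 to 64.4). The order H3K4me3, H3K36me3, H3.3 held in 2236 genes (26.3%). H3.3 came first in 521 genes followed by H3K4me3 (6.12%) and in 0.682% followed by H3K36me3. In the other orders H3K36me3 came first, with H3.3 second in 1.27% and last in 2.23%. H3.3 lay downstream of H3K4me3 in 91.9% of the genes (91.3 to 92.5), by a median of 0.320 of the gene. H3K36me3 lay downstream of H3.3 in 70.2% (69.2 to 71.2), by a median of 0.118.

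H3.3 was found at both ends of the gene. A H3.3 peak reached within 500 bp of the start in 59.2% (58.1 to 60.2) of these genes and within 500 bp of the end in 48.3% (47.3 to 49.4). For H3K4me3 the shares were 94.7% and 8.78%, and for H3K36me3 1.22% and 65.3%. In the mean profile the H3.3 coverage was highest 500 to 1000 bp before the start, at 39.4%, and fell to 31.6% in the 500 bp next to the start, where H3K4me3 coverage was highest, at 90.3%. It was lowest in the fourth twentieth of the gene, at 19.6%, rose to 34.2% in the last twentieth and was 35.7% in the first 500 bp past the end. H3K36me3 rose from 2.26% in the first twentieth to 56.9% in the nineteenth.

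**Figure D2:**
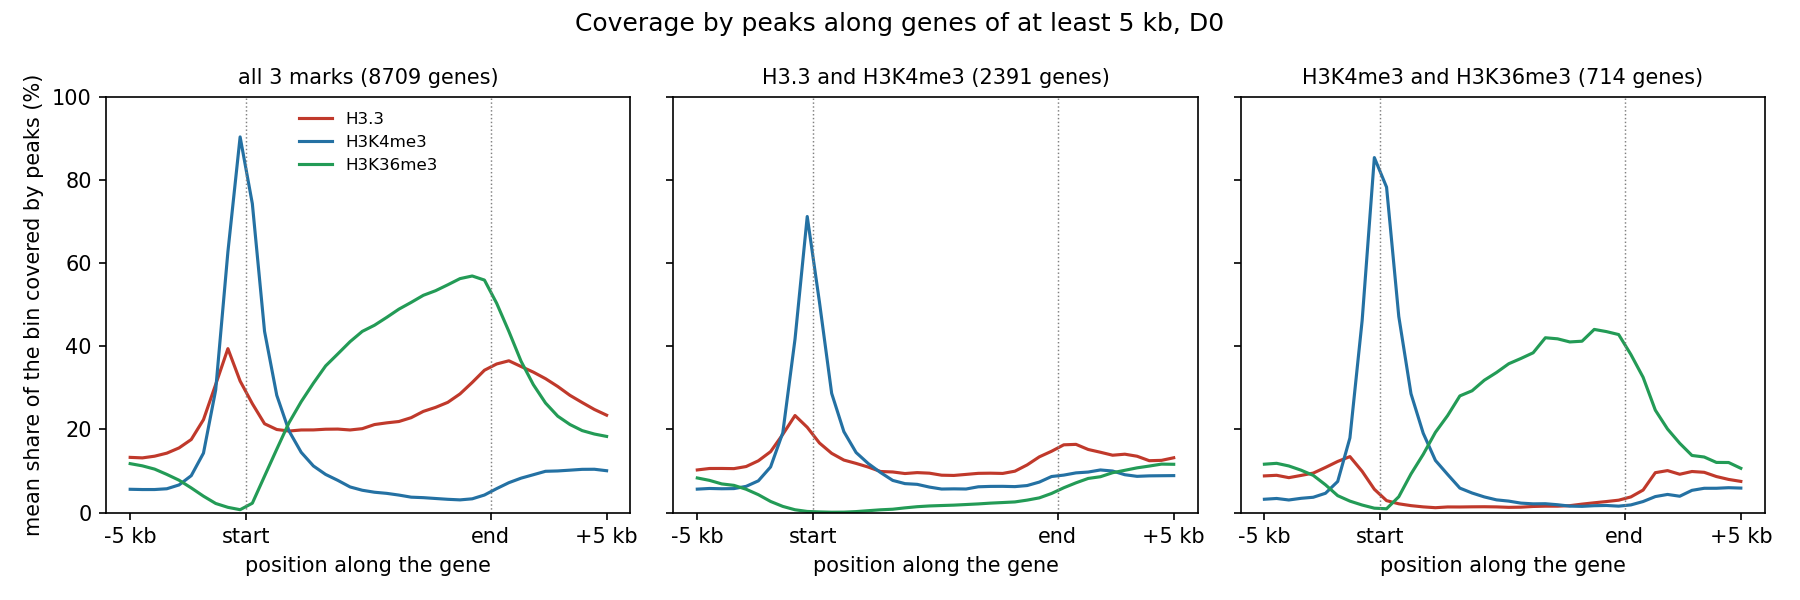
Mean share of each bin covered by peaks (y axis, %) along genes of at least 5 kb, with 500 bp bins to 5 kb on either side and 20 bins across the gene, for 3 classes. With all 3 marks H3K4me3 reaches 90.3% before the start, H3K36me3 56.9% near the end, and H3.3 is highest at 39.4% before the start with a further rise at the end; with H3.3 and H3K4me3 alone H3.3 ends at 14.7%, and with H3K4me3 and H3K36me3 alone it stays under 3% in the gene.

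H3.3 coverage was higher in the last twentieth than in the middle of the gene, in the H3.3 classes called with and without H3K36me3. With all 3 marks it was 20.7% in the middle and 34.2% in the last twentieth. In the 2391 genes of at least 5 kb with H3.3 and H3K4me3 but no H3K36me3, these values were 9.23% and 14.7%. The first twentieth of these genes was higher than the last, at 16.7%, and the lowest held 8.92%. In the 433 genes of at least 5 kb with H3.3 as the only mark the values were 6.01% and 9.95%. Their first twentieth held 8.08% and their lowest 5.12%. The lowest value is picked from the profile itself, so the end lying above it carries no information. The last twentieth did not stand above the flank. With H3.3 and H3K4me3 the first 500 bp past the end held 16.3%, and the last bin of the 5 kb 13.2%. With H3.3 alone these were 11.1% and 10.5%. Peaks of H3K36me3 still covered 4.60% of the last twentieth with H3.3 and H3K4me3. The part of neighbouring genes in these values was not tested. The median position of H3.3 was 0.453 (0.435 to 0.469) in genes with H3.3 and H3K4me3 and 0.477 (0.426 to 0.518) in genes with H3.3 alone. Within the genes with all 3 marks, sorted into 4 groups of equal size by the share of the gene under H3K36me3, the median share under H3.3 was 6.04%, 13.6%, 20.5% and 26.7% from the lowest to the highest group, and the median H3.3 position was 0.463, 0.481, 0.523 and 0.571. The share under H3K4me3 also increased, from 4.14% to 11.3%, and the median gene length fell from 69.3 to 22.4 kb, so length moved with these values and its part was not tested. Over the 8709 genes Spearman's correlation of the covered shares was 0.650 for H3.3 and H3K4me3, 0.420 for H3.3 and H3K36me3 and 0.373 for H3K4me3 and H3K36me3. The genes share the libraries, the input and their own length, so these are descriptions.

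Peaks of all 3 marks covered more of the exons than of the introns. More than 2 kb from the start of the 8709 genes, peaks covered 25.01% of the exon base pairs and 12.5% of the intron base pairs for H3.3, and 57.6% and 21.0% for H3K36me3. For H3K4me3 the values were 4.72% and 3.10%. In genes with H3.3 and H3K4me3 they were 8.17% and 2.40% for H3.3 and 7.71% and 1.46% for H3K4me3. Base pairs were pooled over genes, and neither gene length nor the position along the gene was held equal between exons and introns. With all 3 marks the median H3.3 coverage was 26.3% in genes of 5 to 20 kb and 2.94% in those over 300 kb. For H3K36me3 these medians were 50.3% and 1.81%. The part of gene length in the exon values was not tested.

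The marks differed in breadth. A median gene with all 3 marks lay under H3K36me3 over 37.1% of its length (36.06 to 37.95), under H3.3 over 14.7% (14.2 to 15.2) and under H3K4me3 over 8.14% (7.91 to 8.34), which is 9.63, 4.99 and 2.60 kb. More than 50% of the gene lay under H3K36me3 in 3270 of these 8709 genes (37.5%), under H3.3 in 1247 (14.3%) and under H3K4me3 in 262 (3.01%). The H3.3 value depends on the fold asked for, and was 8.19% when all peaks had to reach 4. It was 5.22% when the MEF H3.3 list stood in for the D0 list.

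Among single peaks the marks differed most in the longest ones. The median length of a peak was 783 bp for H3.3, 1144 bp for H3K4me3 and 1086.5 bp for H3K36me3, but peaks over 5 kb held 55.8% of the base pairs of H3K36me3, 21.9% of those of H3.3 and 14.0% of those of H3K4me3. The broadest H3.3 peak, 125 kb, covered the whole of Hmga2, a chromatin protein gene of mesenchymal and embryonic cells. The next lay over Tnc (91.9 kb), Myh9 (90.7 kb), the gene of a non-muscle myosin heavy chain, and the laminin gene Lamb1 (57.5 kb). The broadest H3K4me3 peak, 30.5 kb, ran over Hoxa7, Hoxa9, Hoxa10 and Hoxa11, and another of 26.6 kb over Hoxc9 and Hoxc10. The broadest H3K36me3 peaks lay over Ubr4 (96.9 kb), a ubiquitin ligase gene, the collagen gene Col5a1 (96.5 kb) and the chromatin remodeller gene Chd2 (90.6 kb). The H3.3 coverage of Hmga2 was 100% in D0, 83.0% in MEF, 69.6% in D3 and 24.6% in iPSCs.

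**Figure D3:**
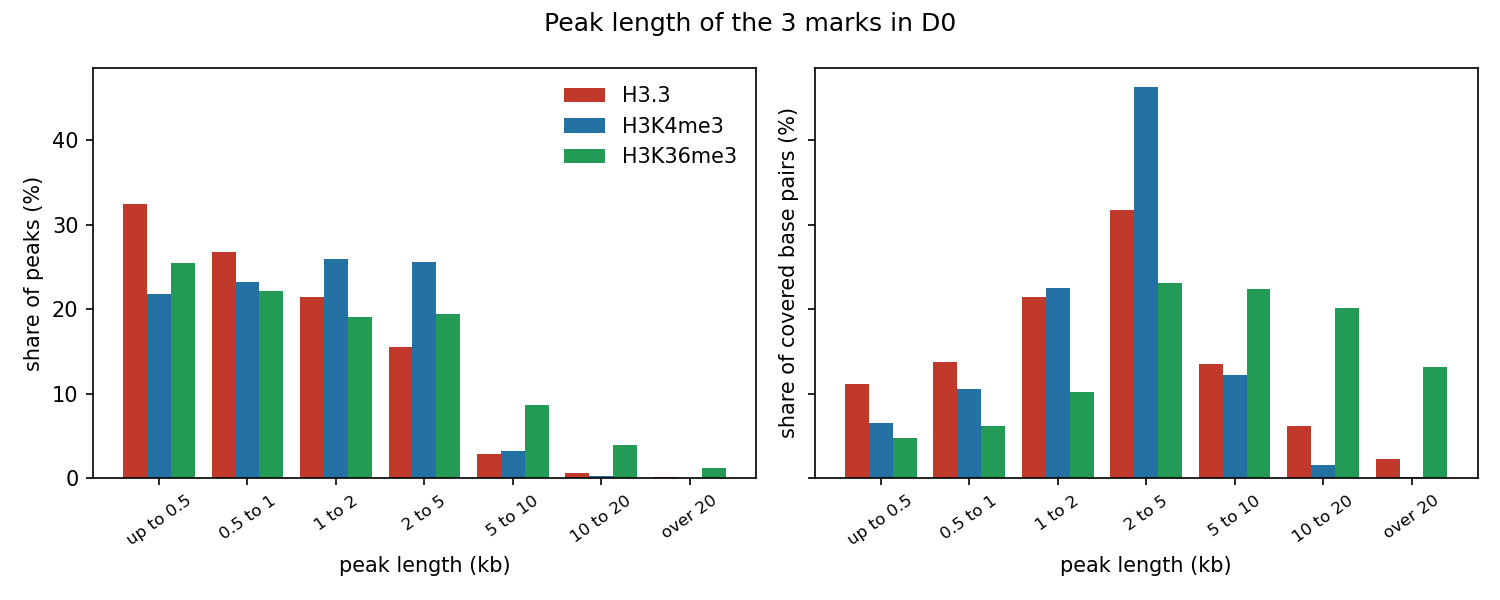
Share of peaks (left) and share of covered base pairs (right), in %, by peak length in kb for the 3 marks in D0. Peaks over 5 kb hold 55.8% of the base pairs of H3K36me3 but 21.9% for H3.3 and 14.0% for H3K4me3.

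The peaks themselves lay in different places. By midpoint, 14.2% (13.9 to 14.5) of the 40945 H3K4me3 peaks, 6.92% (6.75 to 7.09) of the 89614 H3.3 peaks and 2.77% (2.64 to 2.90) of the 57222 H3K36me3 peaks were in a promoter, from 1000 bp before to 100 bp after a start site, a region that makes up 1.77% of the genome. Introns held 52.1% of the H3.3 peaks, 42.4% of the H3K4me3 peaks and 68.8% of the H3K36me3 peaks, and make up 33.2% of the genome. The region from 100 bp before to 1000 bp after a transcript end held 9.06% of the H3K36me3 and 5.23% of the H3.3 peaks but 3.04% of the H3K4me3 peaks (1.91% of the genome). Intergenic sequence, 61.2% of the genome, held 30.6% of the H3.3 peaks, 32.4% of the H3K4me3 peaks and 10.4% of the H3K36me3 peaks. Many H3K4me3 peaks thus lay away from starts of protein-coding genes, with the midpoint of 32.5% within 1 kb of such a start site. Noncoding genes were not used for these places, so peaks at their starts can count as intergenic or intronic.

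H3.3 met each of the other marks over a larger share than they met each other. The 3 marks together covered 288 Mb, 10.9% of the genome. Of this, 117 Mb lay under H3K36me3 alone, 70.5 Mb under H3.3 alone, 40.7 Mb under H3K4me3 alone, 33.2 Mb under H3.3 and H3K36me3, 23.8 Mb under H3.3 and H3K4me3, 2.51 Mb under all 3 and 0.933 Mb under H3K4me3 and H3K36me3 without H3.3. H3K36me3 covered 5.78% of the genome and 5.07% of the H3K4me3 base pairs, but 27.5% of the H3.3 base pairs. H3K4me3 covered 2.56% of the genome and 2.25% of the H3K36me3 base pairs, but 20.2% of the H3.3 base pairs. The overlap of H3K4me3 and H3K36me3 was thus close to their shares of the genome.

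Counted as peaks, 47.4% of the H3.3 peaks met no other mark, 23.5% met H3K4me3, 24.4% met H3K36me3 and 4.72% met both. The H3.3 peaks that met both were broad, with a median of 4186.5 bp, and those alone were short, with a median of 643 bp, and their median fold over input was 4.50 and 3.98. Of the lone H3.3 peaks 49.9% were intronic and 43.7% intergenic. Their median distance from a start site was 22.4 kb, against 3.96 kb for those with H3K4me3 and 10.3 kb for those with H3K36me3.

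H3.3 peaks without another mark and those with H3K4me3 often held the AP-1 motif. AP-1, the dimer of Fos and Jun proteins, binds TGANTCA, and this was searched in the central 500 bp of each peak (the motif is its own reverse complement). It was in 24.8% (24.4 to 25.2) of the H3.3 peaks without another mark, 21.98% (21.4 to 22.5) of those with H3K4me3, 18.2% (17.1 to 19.4) of those with both and 15.2% (14.7 to 15.7) of those with H3K36me3. All 500 bp windows of the genome held it in 14.3%. For H3K4me3 peaks the share was 23.0% (22.4 to 23.6) with H3.3 and 14.3% (13.7 to 14.8) alone, and outside promoters 25.3% and 15.4%. For H3K36me3 peaks it was 13.4% with H3.3 and 13.4% alone. The mean GC content was 45.3% in the windows of lone H3.3 peaks and 41.8% in the genome. The central 200 bases of the intergenic, lone H3.3 peak with the highest score among those with a fold of at least 4 and the motif in these bases are printed to show such a peak, with the motif in capitals. The peak, 7.40 kb long and with 4.28-fold more tags than input, lay 13.0 kb from the nearest start site, that of S100a3, and was chosen after its values were seen.
H3.3 peak on mm9, chr3:90391007-90391206, plus strand: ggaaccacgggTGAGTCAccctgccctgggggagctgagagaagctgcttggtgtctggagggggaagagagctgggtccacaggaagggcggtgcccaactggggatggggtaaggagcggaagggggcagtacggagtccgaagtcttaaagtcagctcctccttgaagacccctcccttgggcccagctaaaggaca

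Fibroblast genes were broadly covered by H3.3 and H3K36me3. In the 29 fibroblast matrix genes of at least 5 kb the median share under H3.3 was 71.4% and under H3K36me3 82.8%, while over all 16526 genes of at least 5 kb the medians were 4.86% and 6.31%. Such breadth was not particular to fibroblast genes, since the 22 housekeeping genes of at least 5 kb had medians of 45.1% and 58.0%. All 3 marks were on 26 of the 30 fibroblast matrix genes (40.9% of all genes). The collagen genes Col1a1 and Col1a2 were covered to 100% and 91.4% by H3.3 and to 94.4% and 95.5% by H3K36me3, Thbs1, the thrombospondin 1 gene, to 100% and 94.5%, and Fn1, the fibronectin gene, to 93.4% and 97.0%. Breadth of H3K36me3 did not always go with breadth of H3.3 in this list. Dcn and Postn, which encode decorin and periostin, had 82.8% and 87.4% under H3K36me3 but 4.32% and 3.96% under H3.3, and Col6a2 had 79.2% and 3.59%. Lum, the lumican gene, had H3K4me3 and H3K36me3 but 0 base pairs of H3.3, and Eln, the elastin gene, had no H3K36me3.

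The fibroblast identity genes had medians of 65.1% for H3.3 and 57.9% for H3K36me3 in the 26 of at least 5 kb. Acta2, the smooth muscle actin gene of activated fibroblasts, was covered to 100% by H3.3 and 81.5% by H3K36me3, and Vim, the vimentin gene, to 95.9% and 83.0%. The 3 without H3K36me3 by the midpoint rule were S100a4, Tagln and Twist1, of 2.28, 6.43 and 2.15 kb, and 49.5% of Tagln lay under a H3K36me3 peak centred outside it. In D3 the H3.3 coverage of Col1a1 was 54.6% and that of Acta2 40.9%, in MEF 97.2% and 90.8%, and in iPSCs 14.6% and 0.

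Most genes of the housekeeping, proteasome and oxidative phosphorylation lists carried all 3 marks. This held for 26 of 30 housekeeping genes, 31 of 39 proteasome subunits and 54 of 87 genes listed under oxidative phosphorylation by the midpoint rule. By the rule of at least 1 bp, which called 41.7% of all genes, the counts were 30, 33 and 59. The oxidative phosphorylation list also held genes that are not subunits, such as the assembly factor Ndufaf1. Its isoform genes Cox6a2, Cox7b2 and Cox8c carried no mark. Ribosomal protein genes are short, with a median of 3.23 kb, and the rule mattered most there, with 38 of 77 by midpoint and 71 of 77 with at least 1 bp. Their median coverage was 72.6% by H3.3, 95.3% by H3K4me3 and 57.9% by H3K36me3. The 8 genes of H3.3 itself and its deposition, among them H3f3a, H3f3b, Hira, Daxx and Atrx, all carried all 3 marks. So did 14 of 15 genes of H3K4 and H3K36 methyltransferases and subunits of their complexes. The exception was Ash1l, with 0 base pairs of H3K4me3.

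Immediate early genes were broad in H3.3 and H3K4me3 and mixed in H3K36me3. With at least 1 bp, 20 of 22 held H3.3 (57.9% of all genes), 22 held H3K4me3 (69.2% of all genes) and 12 held H3K36me3 (48.2% of all genes); by midpoint the counts were 15, 21 and 12. Fosl1 and Cyr61 were covered to 100% by H3.3 and to 52.6% and 77.5% by H3K36me3. Junb and Ier3 were covered to 100% by H3.3 and H3K4me3, with 0 of H3K36me3. Egr3 and Klf2 held H3K4me3 over 100% of the gene with 0 of the other marks.

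Lineage regulators mostly carried H3K4me3. Of 39 developmental transcription factor genes outside the Hox clusters, 38 carried H3K4me3 (68.6% of all genes), 15 H3.3 (59% of all genes) and 5 H3K36me3 (47.1% of all genes), and 23 carried H3K4me3 as the only mark (9.88% of all genes). Olig2, Nkx2-5 and Six2 were covered to 100% by H3K4me3, and Foxa2 and Nkx2-1 to 79.2% and 79.5%, all with 0 of H3.3 and H3K36me3. Of 39 Hox genes 31 carried H3K4me3, 21 H3.3 and 7 H3K36me3 by the same midpoint rule, and 38, 16 and 7 held at least 1 bp (69.2%, 57.9% and 48.2% of all genes), with median coverage of 72.4% by H3K4me3. The coverage was 100% by H3K4me3 in Hoxa9, Hoxa11 and Hoxc9, with 17.5%, 17.8% and 10.8% by H3.3.

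Pluripotency genes were split. H3K4me3 was on 14 of 24 (68.6% of all genes), H3.3 on 6 (59% of all genes) and H3K36me3 on 1 (47.1% of all genes), which was Tet1. Pou5f1, Nanog, Zfp42 and Tdgf1 had 0 base pairs of any mark, Sox2 had 73.1% under H3K4me3 and 31.7% under H3.3, and Utf1, Sall4 and Lin28a had H3K4me3 as the only mark. In iPSCs H3.3 covered 100% of Pou5f1 and of Nanog and 63.8% of Sox2, and H3K4me3 65.0%, 85.0% and 100%. Dppa5a was the single pluripotency gene with H3.3 as the only mark, with coverage of 100% in D0 and 0 in D3 and MEF.

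Replication-dependent histone genes held no H3K36me3. At least 1 bp of H3.3 lay in 61 of 67 (57.9% of all genes) and of H3K4me3 in 64 (69.2% of all genes). H3K36me3 lay in 0 of 67 (48.2% of all genes), for which the Wilson interval reaches up to 5.42%. Their median length was 0.53 kb, and 13.9% of all genes under 5 kb carried H3K36me3 by midpoint. By midpoint H3.3 was on 44 (59% of all genes) and H3K4me3 on 54 (68.6% of all genes) of the histone genes. Neighbouring histone genes can share a peak, as Hist1h2ad and Hist1h2bf do, so these counts and the interval treat linked genes as separate. Zfp zinc finger genes leaned the other way, with H3K36me3 on 312 of 367 (85.0%, 81.0 to 88.3), against 47.1% of all genes. H3K4me3 was on 308 (68.6% of all genes) and H3.3 on 247 (59% of all genes). A group of 58 had H3K4me3 and H3K36me3 without H3.3 and 29 had H3K36me3 alone, 15.8% and 7.90% of the list against 3.96% and 1.06% of all genes. Their median coverage was 45.8% by H3K36me3 and 3.94% by H3.3. Olfactory and vomeronasal receptor genes carried no mark in 1097 of 1113 and 315 of 321 cases, against 26.1% of all genes. Reads at more than 1 locus were removed by the authors, so near-identical copies in these families could be short of reads.

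**Figure D4:**
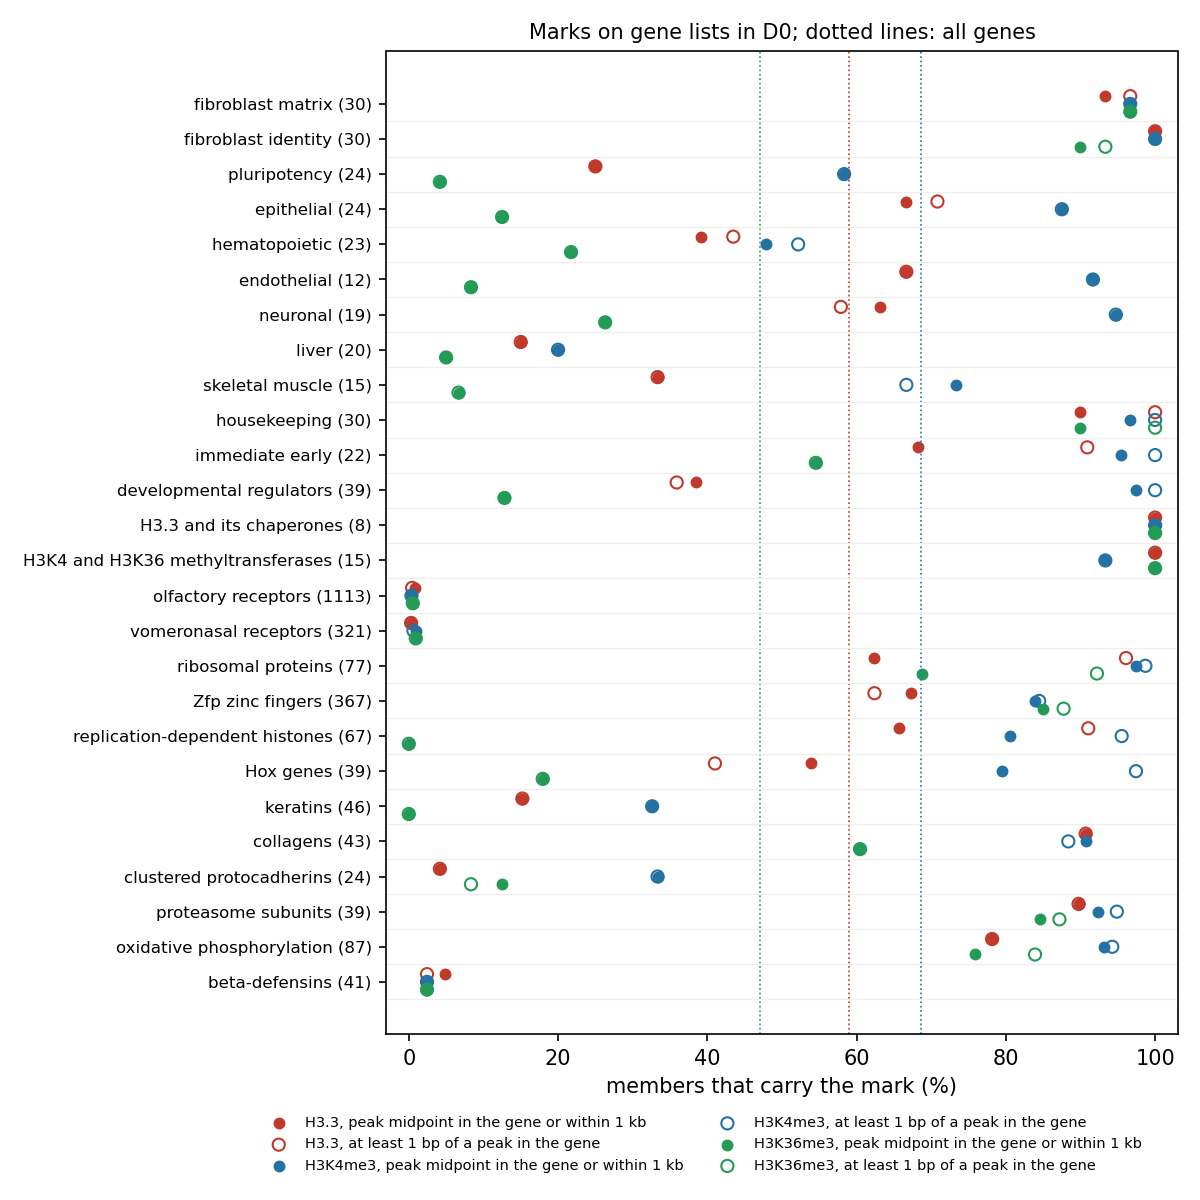
Share of the members of each gene list (y axis, number of genes in brackets) that carried H3.3, H3K4me3 or H3K36me3 in D0 (x axis, %). Filled points use the midpoint rule and open points the rule of at least 1 bp, and dotted lines are the shares of all genes by midpoint (59%, 68.6% and 47.1%); for H3.3 the open point lies farthest right of the filled point in ribosomal proteins (48 and 74 of 77 genes), and left of it in Hox genes (21 and 16 of 39).

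The X chromosome was poor in H3.3. Of its 932 protein-coding genes 185 carried H3.3 (19.8%, 17.4 to 22.5), against 60.8% of the autosomal genes, and the autosome with the lowest share, chromosome 7, had 47.3%. H3K4me3 was on 53.9% (50.7 to 57.0) of the X genes and 69.3% of the autosomal genes, and H3K36me3 on 34.8% (31.8 to 37.9) and 47.7%. The class with H3K4me3 and H3K36me3 but no H3.3 made up 17.0% (14.7 to 19.5) of the X genes and 3.38% of the autosomal genes, and all 3 marks 16.5% and 42.0%. Counted in base pairs, H3.3 peaks covered 2.93 kb per Mb of the X and 52.4 kb per Mb of the autosomes, H3K4me3 peaks 9.18 and 26.8, and H3K36me3 peaks 19.9 and 60.7.

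In percentage points the X and the autosomes differed by more in H3.3 than in the other marks in D0, D3 and iPSCs. In D3 the shares of X and autosomal genes with H3.3 were 14.5% and 57.0%, in iPSCs 13.6% and 61.1% and in MEF 13.9% and 53.0%. For H3K4me3 they were 51.8% and 67.6% in D3 and 50.1% and 68.7% in iPSCs. H3K36me3 was also low on the X of iPSCs, at 6.33% against 35.5%, so there the X and autosomes differed in both. With a fold of at least 4 in D0, 160 X genes kept H3.3 by the midpoint rule, and with the rule of at least 1 bp 169 did. Inside H3.3 peaks the input held 2.54 tags per kb per 10 M tags on the X and 3.49 on the autosomes. The part of this lower input in the low H3.3 count on the X was not tested.

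**Figure D5:**
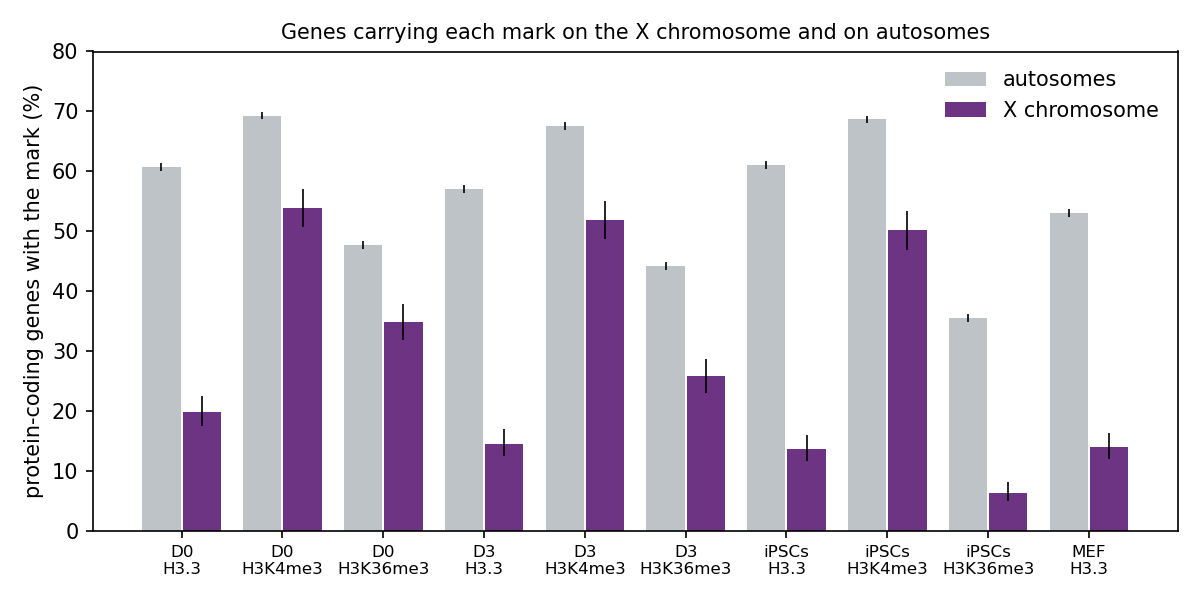
Share of protein-coding genes that carry each mark (y axis, %) on autosomes (grey) and on the X chromosome (purple), for each library used, with 95% Wilson intervals. In D0 19.8% of the X genes and 60.8% of the autosomal genes carry H3.3, a wider gap than for H3K4me3 (53.9% and 69.3%) or H3K36me3 (34.8% and 47.7%).

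The classes were kept to different degrees in other libraries. Of the genes with all 3 marks in D0, 92.4% (91.9 to 92.9) carried H3.3 in D3, 89.9% in iPSCs and 83.8% in MEF, where 55.2%, 59.1% and 51.4% of all genes did. Of the genes with H3.3 as the only mark, 45.4% (41.7 to 49.1) carried H3.3 in D3, 41.7% in iPSCs and 42.0% in MEF. The same class was found again in D3 for 82.0% of the genes with all 3 marks, 54.6% with H3.3 and H3K4me3, 66.9% with H3K4me3 alone, 42.0% with H3.3 and H3K36me3, 40.1% with H3K36me3 alone, 36.5% with H3K4me3 and H3K36me3 and 31.7% with H3.3 alone. Of all genes, these classes held in the same order 37.1%, 14%, 11.8%, 1.38%, 0.943%, 4.08% and 2.8% in D3, and 28% carried no mark there. In iPSCs the same class was found again for 64.7% of the genes with all 3 marks (31.1% of all genes there), 51.2% with H3.3 and H3K4me3 (23.3%), 41.1% with H3K4me3 alone (11.4%), 23.6% with H3.3 alone (3.91%), 14.5% with H3.3 and H3K36me3 (0.715%), 9.28% with H3K36me3 alone (0.469%) and 8.59% with H3K4me3 and H3K36me3 (1.95%). Genes with no mark in D0 had none in D3 in 93.9% of cases and none in iPSCs in 84.6%, where 27% of all genes had none.

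Genes without H3.3 in D0 differed by class in how often they carried it elsewhere, beside 55.2% of all genes in D3, 59.1% in iPSCs and 51.4% in MEF. Of those with H3K4me3 and H3K36me3, 43.2% (39.9 to 46.4) carried H3.3 in D3, 61.7% in iPSCs and 31.0% in MEF. Of those with H3K4me3 alone the shares were 23.0%, 46.3% and 25.6%, and of those with no mark 3.61%, 10.4% and 3.65%. Of the 3 marks on these genes H3K4me3 was kept most often in D3 and iPSCs, since 98.6% of the genes with all 3 marks carried it in D3 and 97.5% in iPSCs (66.9% and 67.9% of all genes), while H3K36me3 was on 88.3% and 68.2% (43.5% and 34.3% of all genes). The iPSC library held 26682 H3K36me3 peaks against 57222 in D0, so the lower share went with a shorter list.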

How the data were processed

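Chromatin immunoprecipitation and sequencing (ChIP-Seq) peaks of D0, D3, iPSC and MEF libraries were used, 1 library per mark and group. The authors mapped reads to mm9 with STAR, removed reads that mapped to more than 1 locus and called peaks with HOMER in histone style against input, with a fold of 2 required for H3.3 and 4 for the other marks. Versions are not given in the sources used here. Per the file headers the score is a signal, tags in the peak scaled to 10 M tags per library, and the fold change is a ratio of tags to scaled input tags. The deposited p-value of each peak against input is not adjusted and was not used.

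Peaks on other contigs were left out (113, 70 and 66). A midpoint within 1000 bp of a gene or inside it marked the gene. Peaks were placed, in this order, in promoters, transcript ends, exons, introns or intergenic sequence. These places and all start sites were those of protein-coding genes only. Positions and coverage of the classes were computed in genes of at least 5 kb. Coverage of single genes, and list medians not stated as of at least 5 kb, used genes of any length. No test was run, since each mark had 1 library. Per class 3 genes were named as described in the report, with the list members that had the highest scores or lacked a mark common in their list, and other genes were chosen after their values were seen. The members and lists were chosen with earlier results of these data known. Lists given by name pattern may hold near-identical copies. Alternatives were the nearest start site, an overlap of at least 1 bp, equal numbers of peaks, a fold of at least 4, peaks at or above the median score, autosomes only, genes at least 2 kb apart and, added after the data were seen, the MEF list of H3.3. The counting was checked on simulated data. Python 3.11.15, numpy 2.4.6, pandas 2.3.3, scipy 1.17.1 and matplotlib 3.10.9 were used. The promoter sequence of the class with H3.3 alone is not reported here.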

Additional observations from a re-analysis of the deposited data

How the results depend on the processing

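Of 53 values recomputed under 8 alternatives, 23 stayed within 1.5 times the reported count or within the interval of the reported share or median, and 30 moved. With autosomes alone the counts of all 3 marks, H3.3 only and H3K4me3 with H3K36me3 were 8996, 674 and 723, and none of the values moved. Under the nearest start site the H3.3 position was 0.512, the share in the order H3K4me3, H3.3, H3K36me3 was 64.6% and the share of the gene under H3.3 was 14.1%, and with at least 1 bp of overlap the last was 15.3%. With 40945 peaks per mark, H3.3 only held 338 genes, H3K4me3 with H3K36me3 2178, the position was 0.525, the order 58.0% and the promoter share of H3.3 peaks 7.81%. With a fold of at least 4 these were 428, 1826, an order of 57.1%, 8.19% of the gene covered and 7.91% in promoters. With peaks at or above the median score H3K4me3 with H3K36me3 held 1677 genes, and the position was 0.526, the order 59.9%, the coverage 15.5% and the promoter share 7.81%. Over 13910 genes at least 2 kb from another, the counts of all 3 marks, H3.3 only and H3K4me3 with H3K36me3 were 4755, 404 and 493 of fewer genes, the position was 0.496, the order 67.7% and the coverage 12.4%. With the MEF list of H3.3, an alternative chosen after seeing the data, H3K4me3 with H3K36me3 held 2093 genes, the position was 0.444, the order 54.6%, the coverage 5.22% and the promoter share 9.54%. Other than where the construction leaves fewer peaks or genes, the cause was not tested. No paired analysis was possible because each mark had 1 library per group, and for the same reason no replicate could be left out. The depth of 24.6 to 29.2 M tags limits the calls, so a gene without a mark is one in which none was detectable.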

Other observations

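Gene families outside the comparisons above had these values. Of 43 collagen genes 24 carried all 3 marks (40.9% of all genes) and 11 H3.3 with H3K4me3 (13.9% of all genes). Of 46 keratin genes 30 carried no mark (26.1% of all genes) and 0 carried H3K36me3 (47.1% of all genes). Of 24 clustered protocadherin genes 16, and of 41 beta-defensin genes 37, carried none. Among liver genes 14 of 20 carried none.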
